A study of Mus musculus with 60 samples.

Results

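Bulk RNA of the medial prefrontal cortex (mPFC) was compared between the groups RES and NS, which hold 12 of the 60 libraries of the series, 6 per group, taken by their labels as RES Input and NS Input. Of the 55414 genes in the deposited table, 18170 were kept by an expression filter and tested. All mice were of the inbred strain DBA2/J and expressed a GFP-tagged ribosomal protein, GFP-L10a, and the labels do not say in which cells or under which promoter. Input samples are the bulk tissue, taken with no antibody. The IP samples come from pulldown of the tagged ribosomes with an antibody against GFP, and their labels name neurons that project to the aPVT. The groups are 4 subtypes labelled RES, SA, SA:ANH and ANH and a group labelled NS, each with 6 Input and 6 IP libraries, and the labels do not spell these names out. Social defeat, in which an aggressor attacks the mouse, lasted 5 days by the account of the series, which does not say which groups went through it. Age, sex and whether each of the 6 libraries in a group is 1 animal's are not stated, so p-values measure only the spread between libraries, which may be technical.

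The mPFC holds layered excitatory neurons, inhibitory interneurons, glia and vessels, and bulk RNA sums them. Oligodendrocytes wrap axons in myelin, and their transcripts are among the most abundant of glial RNA. The circadian clock runs in most cells of the brain: activators bind E-box motifs and switch on repressors and output factors whose RNA rises and falls over the day. Immediate early genes are switched on quickly when neurons fire, and a later set of effector genes, Bdnf among them, follows. In bulk samples, fewer cells of a type and less RNA per cell cannot be told apart.

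Library totals were 22412115 to 26638484 counts in RES and 19116938 to 24169384 in NS. Levels are in CPM, that is, counts divided by the scaled library size and put on 1 common scale. Fold changes are log2 values of RES over NS ± SE, and adjusted p-values come from edgeR's quasi-likelihood test over all genes tested, called at 0.05. The summed CPM of 15 excitatory neuron markers was 5748 to 6285 in RES and 5776 to 5869 in NS, and none of them passed with edgeR, 3 with DESeq2 and 1 with voom. Rpl10a, which encodes the tagged protein, averaged 82.9 ± 4.47 CPM in RES and 78.8 ± 5.54 in NS (SD, n = 6 each; 0.07 ± 0.07, adjusted p = 0.637; chromosome 17, 28547445 to 28550007). Positions are as deposited, and no source used here gives the build behind them.

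In all, 587 genes (3.23%) passed, of which 356 (1.96%) were higher in RES and 231 (1.27%) lower. The rises were small and mostly of well expressed genes: their median was 0.21, against -0.39 among the falls, and 9 genes rose but 41 fell by at least 2-fold. Genes that rose had a median mean level of 126 CPM and those that fell 34.0 CPM. The median fold change of all genes tested was -0.002. Of the genes called, 353 of the 356 higher and 218 of the 231 lower were protein coding. All 6 RES libraries lay beyond all 6 NS libraries for 334 of the genes called, and over all genes tested 2.74% had groups that did not overlap. With library totals in place of TMM scaling the split was 220 higher and 300 lower, and without RES Input replicate 3 the number higher was 236.

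**Figure D1:**
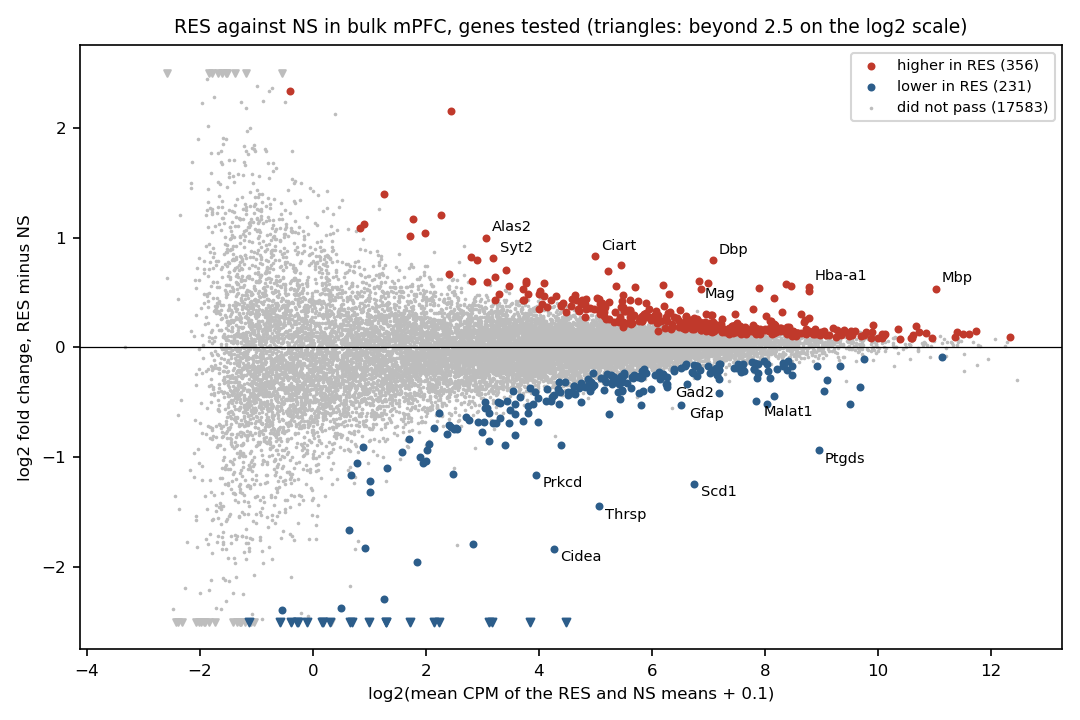
Log2 fold change of RES over NS (vertical axis) against log2 of the mean CPM plus 0.1 (horizontal axis) for the 18170 genes tested, with 356 higher genes in red, 231 lower genes in blue and the rest in grey. Triangles mark genes beyond the axis, and all called triangles are falls, mostly of adipose and pituitary genes.

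Before the other results, 1 feature of the NS libraries touches every comparison with them. All 6 NS Input libraries held transcripts of fat tissue and of the anterior pituitary that were at or near 0 in RES. These lists were put together after the values were seen, so they are described and not tested. Gh, the growth hormone of the pituitary, had 0 counts in all RES Input libraries together and 6129 in NS, at least 2186-fold lower in RES with the RES total set at a floor of 3 counts (chromosome 11, 106191097 to 106192691). Its CPM was 0 in every RES library, against 41.3, 43.8 and 49.5 (lowest, median and highest) in NS libraries. The NS libraries were alike in this, with a coefficient of variation of 6.30%, where counting alone gives 3.13%. Fabp4, a fatty acid carrier of adipocytes, had 2 counts in RES and 3914 in NS, a ratio of NS over RES of 2094 (exact 95% interval 579 to 17298, which covers counting error only; chromosome 3, 10269148 to 10273636). Ucp1, the uncoupling protein by which brown fat makes heat, had 1 count in RES and 2377 in NS, a ratio of NS over RES of 2544 (456 to 100508). Fabp4 lay between 27.5 and 29.8 CPM in all NS libraries, a coefficient of variation of 2.99%, where counting alone gives 3.92%. The other fat and pituitary transcripts checked varied by more than counting gives. Among them were Ucp1, at 10.2% against 5.02%, and the pituitary hormone Prl, at 29.5% against 9.62%.

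Several further fat genes behaved alike. Car3, a carbonic anhydrase abundant in fat, had 24 counts in RES and 2432 in NS, a ratio of NS over RES of 108 (72.7 to 170). Pck1, an enzyme of glycerol synthesis in fat, had 0 counts in RES and 1189 in NS, at least 424-fold lower. Adipoq, the hormone adiponectin, had 2 and 521 counts in RES and NS, and the lipid droplet gene Cidec 0 and 648. For the called genes that the RES libraries also held, the difference was smaller. Cidea, a lipid droplet protein of brown fat, had 7.22, 7.89 and 10.3 CPM (lowest, median, highest) in RES and 24.8, 30.9 and 33.1 in NS (-1.84 ± 0.12, adjusted p = 5.46e-14). Scd1, the desaturase that makes monounsaturated fatty acids, had 59.01, 61.7 and 72.6 CPM in RES and 141, 149 and 172 in NS (-1.24 ± 0.08, adjusted p = 8.74e-15), and the lipogenic regulator Thrsp stood at -1.45 ± 0.09 (adjusted p = 7.2e-15) and the acyltransferase Agpat2 at -1.79 ± 0.21 (adjusted p = 2.39e-07). None of these groups overlapped. Of 23 fat genes tested 16 were lower and 0 higher, with a median of -1.84 and a summed CPM of 514 to 551 in RES and 757 to 818 in NS. The other 7, Pparg, Lipe, Retn, Dgat2, Acly, Fasn and Plin5, did not pass, at -0.61 to 0.15.

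The pituitary hormone Prl had 1 count in RES and 648 in NS, and Cga, the shared subunit of the glycoprotein hormones, 0 and 203. With Gh these were the 3 of 4 pituitary genes tested that were lower. The fourth, Pomc, the precursor of corticotropin, had 863 counts in RES and 869 in NS and did not pass (-0.10 ± 0.14, adjusted p = 0.798). Lhb, with 9 and 12 counts in RES and NS, and Tshb, with 24 and 30, were below the filter. SA:ANH held both kinds of pituitary hormone RNA at lower levels, with 909 counts of Gh and 104 of Prl, while SA had 38 and 0 and ANH 10 and 0. Fat transcripts were not shared in this way: Fabp4 had 11 counts in SA, 5 in SA:ANH and 6 in ANH. Of 7 skeletal muscle genes tested 0 were called, with a summed CPM of 31.5 to 41.4 in RES and 37.5 to 43.7 in NS. The NS pulldown held little of these transcripts, 428 counts of Gh, 39 of Fabp4 and 23 of Ucp1 over its 6 libraries. What part fat or pituitary RNA has in the other differences from NS was not tested. Fold changes of RES against the other 3 subtypes leave out the NS libraries. These enter that test only through the filter, the scaling and the estimate of spread. That test sets RES against the mean of the 3 subtypes, so a difference in it need not hold against each of them. Values of that test are given beside some of the results that follow.

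**Figure D2:**
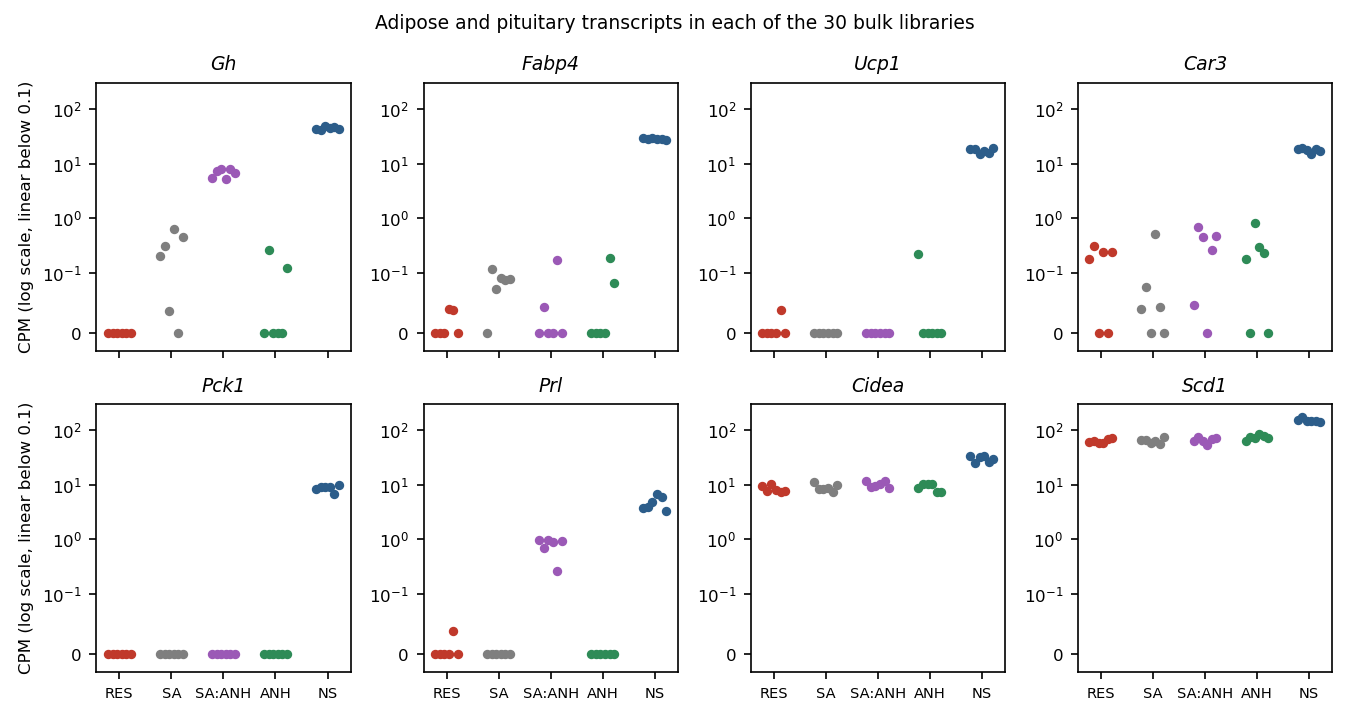
CPM (vertical axis, log scale that is linear below 0.1) of fat and pituitary transcripts in each Input library (points) of RES, SA, SA:ANH, ANH and NS. The NS libraries stand above all others in each panel; SA:ANH holds Gh and Prl between the other subtypes and NS.

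To ask which cell types' transcripts differed, marker lists were counted among the genes called. Myelin genes stood out among the rises. Of 20 markers of mature oligodendrocytes 14 were higher and 0 lower, at a median of 0.49 and a summed CPM of 4365 to 4531 in RES and 3003 to 3185 in NS. Mbp, a structural protein of compact myelin and the gene with the most counts on this list, had 2399, 2460 and 2518 CPM (lowest, median, highest) in RES and 1652, 1709 and 1739 in NS (0.53 ± 0.02, adjusted p = 8.39e-22; chromosome 18, 82493271 to 82603762). The RES libraries all lay above the NS libraries by more than the whole range within either group. Mag, an adhesion protein on the inner face of the myelin sheath, had 129, 137 and 144 CPM in RES and 77.4, 93.9 and 96.4 in NS (0.60 ± 0.05, adjusted p = 3.74e-10). Mog, a protein of the outer myelin surface, had 53.5, 54.8 and 56.0 CPM in RES and 28.6, 32.4 and 37.1 in NS (0.75 ± 0.07, adjusted p = 4.76e-10). Neither pair of groups overlapped.

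The other myelin genes named by rule moved by similar amounts. Trf, the iron carrier transferrin, stood at 0.58 ± 0.04 (adjusted p = 7.31e-15), Cnp, a phosphodiesterase of the myelin cytoplasm, at 0.56 ± 0.04 (adjusted p = 2.86e-14) and Mobp, a basic protein of myelin, at 0.54 ± 0.05 (adjusted p = 8.61e-11). Opalin, a membrane protein of oligodendrocytes, rose by 0.69 ± 0.06 (adjusted p = 8.73e-10). Car2, the carbonic anhydrase of oligodendrocytes, rose less, by 0.24 ± 0.03 (adjusted p = 6.8e-07). Hapln2, Fa2h, Mal, Enpp2, Myrf and Gjb1 also rose, and Ermn, Ppp1r14a, Cldn11, Aspa, Ugt8a and Tspan2 did not pass, at 0.05 to 0.35. Among 17 genes of oligodendrocyte precursors only Bcas1, which is also on in newly formed oligodendrocytes, was higher (0.57 ± 0.06), 0 were lower and the median was 0.01.

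Subtypes differed in myelin RNA. Mbp averaged 2460 ± 49.99 CPM in RES, 2112 ± 26.3 in SA, 1838 ± 55.7 in SA:ANH, 2850 ± 37.9 in ANH and 1699 ± 38.5 in NS (SD, n = 6 each), and no group's range overlapped another's. Against the mean of the other 3 subtypes RES was higher by 0.14 for Mbp (adjusted p = 1.54e-07), and 7 of the 20 myelin genes passed that test, in which 0.688% of all genes passed. The list medians against NS, which share the same NS libraries, were 0.49 in RES, 0.20 in SA, 0.11 in SA:ANH and 0.69 in ANH.

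Red cell transcripts were higher as well. Hba-a1, an alpha globin, had 481, 521 and 573 CPM in RES and 348, 352 and 367 in NS (0.55 ± 0.03, adjusted p = 6.36e-15; chromosome 11, 32233511 to 32234465). Hbb-bs, a beta globin, had 493, 512 and 552 CPM in RES and 348, 365 and 379 in NS (0.51 ± 0.03, adjusted p = 1.01e-14). Both globins were at higher levels in every RES library than in any NS library, and near-identical globin copies may share reads. Alas2, the first enzyme of heme synthesis in red cells, stood at 0.9994 ± 0.15 (adjusted p = 6.38e-05) and the beta globin Hbb-bt at 0.34 ± 0.06 (adjusted p = 0.000927), and 4 of 6 genes of this list were higher, with a median of 0.42. RES held less globin RNA than the other 3 subtypes, by 0.29 for Hba-a1 (adjusted p = 3.1e-09) and 0.28 for Hbb-bs (adjusted p = 3.1e-09): Hba-a1 averaged 522 ± 29.8 CPM in RES, 628 ± 8.80 in SA, 655 ± 36.6 in SA:ANH, 639 ± 20.02 in ANH and 356 ± 7.90 in NS (SD, n = 6 each). Of 20 endothelial genes 1 was higher and 0 were lower, with 0 called without any 1 of RES Input replicate 1 and NS Input replicates 2 and 3.

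Some meningeal and fibroblast genes were lower in RES. Of 20 such genes 0 were higher, 7 were lower and 13 did not pass, at a median of -0.59, and their summed CPM was 492 to 554 in RES and 852 to 898 in NS. Ptgds, the prostaglandin D synthase made by the meninges, choroid plexus and some oligodendrocytes, took most of that sum, with 315, 335 and 374 CPM in RES and 611, 652 and 676 in NS (-0.94 ± 0.03, adjusted p = 5.79e-22; chromosome 2, 25356721 to 25360058). Its groups were separated by more than the range within either. Igf2, a growth factor of the meninges, had 7.999, 10.1 and 11.5 CPM in RES and 14.03, 15.7 and 19.6 in NS (-0.67 ± 0.11, adjusted p = 0.000181). Mgp, a matrix protein that inhibits calcification, stood at -0.61 ± 0.11 (adjusted p = 0.000815) and Dcn, the collagen-binding proteoglycan decorin, at -0.49 ± 0.10 (adjusted p = 0.00256). The retinoic acid enzyme Aldh1a2, Crabp2 and Slc6a13 also fell, while the collagen genes Col1a1, Col1a2 and Col3a1 did not pass, at -0.76 ± 0.33, -0.36 ± 0.15 and -0.73 ± 0.34.

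Ptgds and Igf2 were low in RES beside the other subtypes too. Ptgds averaged 340 ± 22.2 CPM in RES, 604 ± 16.2 in SA, 503 ± 17.0 in SA:ANH, 412 ± 4.93 in ANH and 651 ± 22.8 in NS (SD, n = 6 each), and against the other 3 subtypes RES stood at -0.56 (adjusted p = 5.51e-17). For Igf2 that value was -0.54 (adjusted p = 0.00101), and for Dcn and Mgp it did not pass, at -0.20 and -0.27. Of 13 genes of the choroid plexus and ependyma, tissue next to the brain's fluid spaces, 0 passed, with a summed CPM of 21.1 to 23.8 in RES and 20.2 to 23.9 in NS.

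**Figure D3:**
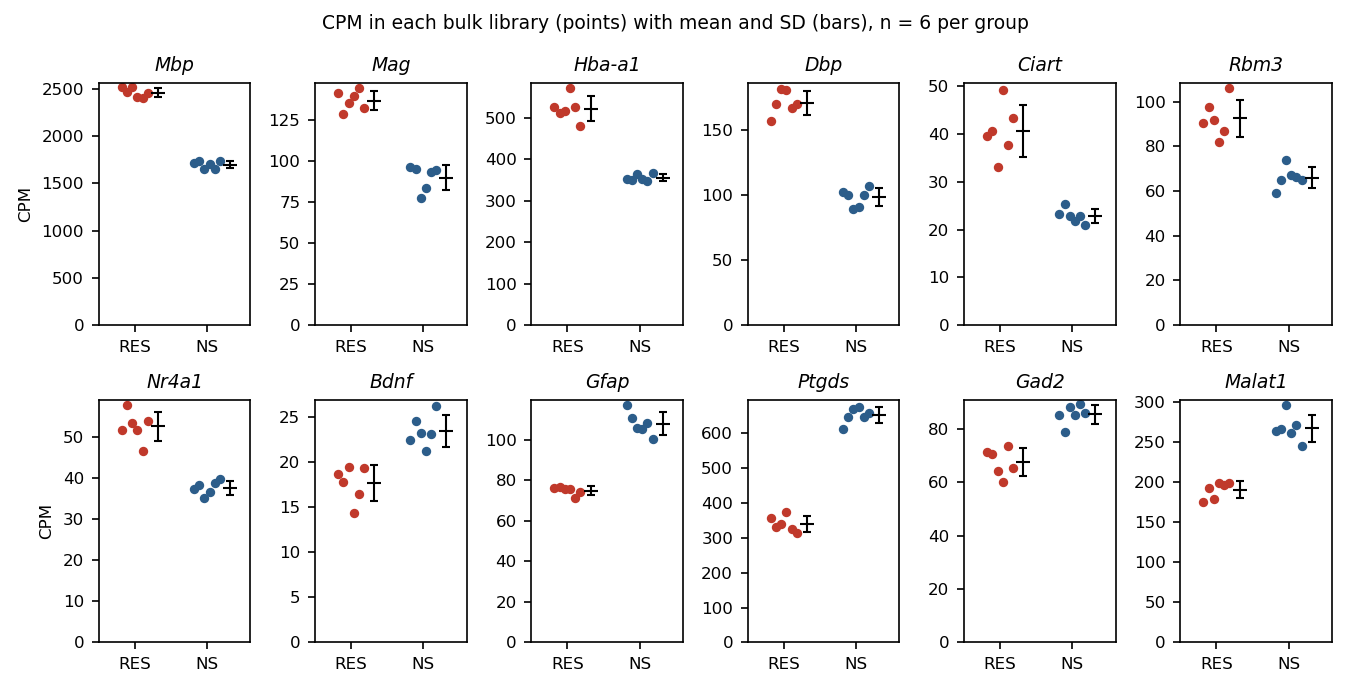
CPM (vertical axis, from 0) of named genes in each Input library (points), RES in red on the left and NS in blue on the right, with the mean and SD of the 6 libraries (bars). The groups do not overlap in any panel; Mbp, Mag, Hba-a1, Dbp, Ciart, Rbm3 and Nr4a1 are higher in RES, and Bdnf, Gfap, Ptgds, Gad2 and Malat1 lower.

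Other glial lists moved in few members. Gfap, the intermediate filament of astrocytes, had 71.2, 75.6 and 76.9 CPM in RES and 100.4, 107 and 117 in NS (-0.53 ± 0.05, adjusted p = 3.16e-09), with no overlap. It was 1 of the 2 genes that fell among 20 of astrocytes, and the list's median was -0.03. Of 20 microglia and macrophage genes 2 fell: Lyz2, the lysozyme of macrophages, had 11.5, 15.2 and 18.4 CPM in RES and 24.7, 27.7 and 29.2 in NS (-0.89 ± 0.12, adjusted p = 5.43e-06). The complement subunit C1qb stood at -0.23 ± 0.06 (adjusted p = 0.0252), with overlapping groups, and did not pass without any 1 of RES Input replicates 3, 4 and 5 or NS Input replicate 1, which left 1 gene of the list. Microglial genes such as Tmem119 and P2ry12 were not among those called, and the list's median was -0.01. Against the other 3 subtypes 0 genes of the astrocyte and microglia lists passed. Gfap stood there at -0.01 (adjusted p = 0.933) and Lyz2 at -0.07 (adjusted p = 0.854). Lyz2 was also below NS in SA (-0.92), SA:ANH (-0.83) and ANH (-0.71).

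Neuronal markers were close to level. Of 20 inhibitory neuron genes 3 were lower and 0 higher (median -0.05), and 0 passed against the other 3 subtypes. Gad2, which makes the transmitter GABA at terminals, had 60.2, 68.0 and 73.5 CPM in RES and 78.6, 85.5 and 89.2 in NS (-0.34 ± 0.08, adjusted p = 0.00763), and no library of one group lay within the other. Gad1, the enzyme for most GABA synthesis, stood at -0.14 ± 0.04 (adjusted p = 0.0227) and the cannabinoid receptor Cnr1 at -0.34 ± 0.10 (adjusted p = 0.0454). Both had overlapping groups and lost the call in several fits with 1 library less, so that without RES Input replicate 5, NS Input replicate 1 or NS Input replicate 2 the list had 1 gene called. Of 18 layer 6 and subplate genes 2 were higher (median -0.03), Cplx3, a complexin of subplate neurons (0.45 ± 0.08, adjusted p = 0.000251), and Rprm, a cell cycle regulator of layer 6 neurons (0.17 ± 0.05, adjusted p = 0.0326). Rprm lost the call without any 1 of 5 RES libraries (all but replicate 5) or 4 NS libraries (all but replicates 3 and 6), and then Cplx3 alone was called. Of 16 layer 5 genes 0 passed, and of 16 upper layer genes 1 was higher.

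Several circadian clock genes were higher in RES. Of 22 tested 8 were higher, 1 was lower and 13 did not pass, at a median of 0.18. Among the outputs and repressors driven through E-boxes, Dbp, a transcription factor whose RNA follows the clock closely, had 157, 170 and 182 CPM in RES and 89.6, 100.2 and 107 in NS (0.80 ± 0.05, adjusted p = 7.2e-15; chromosome 7, 45354512 to 45359627). Ciart, a repressor of the clock activators, had 33.1, 40.0 and 49.2 CPM in RES and 20.9, 22.9 and 25.2 in NS (0.83 ± 0.08, adjusted p = 2.73e-09). No RES library of either gene lay within the range of NS. Nr1d1, the heme-binding repressor of the activator Arntl, had 135, 139 and 143 CPM in RES and 87.5, 94.96 and 107 in NS (0.53 ± 0.04, adjusted p = 3.28e-11). Bhlhe40, a repressor that competes for E-boxes, stood at 0.58 ± 0.05 (adjusted p = 1.16e-10), and Per1, a core repressor that also answers to glucocorticoids and neuronal activity, at 0.59 ± 0.11 (adjusted p = 0.000649).

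Bhlhe41 (0.47 ± 0.10), the repressor Cry2 (0.28 ± 0.05) and the output factor Tef (0.21 ± 0.04) also rose. The activator of the positive arm, Arntl, was lower (-0.40 ± 0.09), and its partner Clock stood at -0.16 ± 0.12 and did not pass. Per2 (0.41 ± 0.14) and Per3 (0.26 ± 0.13) did not pass either. Times of day at which tissue was taken are not in the labels, so what part they have in these differences was not tested. Of the 22 clock genes 7 also differed between RES and the other 3 subtypes. Dbp averaged 171 ± 9.08 CPM in RES, 131 ± 7.53 in SA, 158 ± 11.7 in SA:ANH, 117 ± 1.09 in ANH and 98.4 ± 6.81 in NS (SD, n = 6 each), and RES was higher than the other 3 by 0.35 (adjusted p = 1.54e-07).

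Promoter sequence of the clock genes was read for E-boxes (CACGTG, the same on both strands) because these genes moved together. RefSeq promoters of build GRCm38.p6, 250 bases before to 50 after the start of transcription, were matched by symbol for 12543 of the genes tested and for 18 of the clock genes. An E-box lay in 9.75% of all promoters, in 11.3% of those of the genes that rose and in 8.23% of those that fell. Of 7 clock genes that rose 4 held one (Ciart, Per1, Bhlhe41 and Tef), and of the other 11 clock genes 1 did, Cry1, which did not pass. No E-box was found for the risen genes Dbp, Nr1d1, Bhlhe40 and Cry2, not all of which had a matched promoter. The windows are printed 5′ to 3′ on the gene's strand with the E-box in capitals.
Ciart, chr3:95882263-95882304 (-): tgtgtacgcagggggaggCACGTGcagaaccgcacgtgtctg
Per1, chr11:69098765-69098806 (+): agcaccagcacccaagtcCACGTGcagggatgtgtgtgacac
Bhlhe41, chr6:145865550-145865591 (-): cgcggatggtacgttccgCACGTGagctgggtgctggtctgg
Tef, chr15:81802528-81802569 (+): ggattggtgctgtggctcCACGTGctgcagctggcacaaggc
Cry1, chr10:85185091-85185132 (-): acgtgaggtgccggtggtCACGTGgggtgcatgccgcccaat
Ciart held 3 E-boxes, at 116, 58 and 44 bases before the start, and the last of these is seen in lower case in its window. The D-box TTATGTAA (0.638% of all promoters, both strands) and the cAMP response element TGACGTCA (3.02%) were in 0 of the 7 clock promoters that rose. A match is a stretch of letters and no measure of binding, and GRCm38.p6 positions are not those of the deposited table.

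The cold-inducible RNA-binding proteins rose beside the clock genes. Rbm3, which is induced by mild cooling, had 81.8, 91.1 and 106 CPM in RES and 59.1, 65.7 and 73.9 in NS (0.49 ± 0.08, adjusted p = 0.000127). Cirbp, its relative, had 189, 193 and 203 CPM in RES and 143, 156 and 177 in NS (0.30 ± 0.05, adjusted p = 5.18e-05), and neither gene's groups overlapped. Cirbp averaged 195 CPM in RES, 192 in SA, 169 in SA:ANH and 156 in ANH. Its SA libraries, at 178 to 202 CPM, overlapped those of RES. Against the mean of the other 3 subtypes Cirbp was higher in RES (0.19, adjusted p = 0.00629), and Rbm3 did not pass (0.15, adjusted p = 0.354). Both belong to a list of 36 splicing and nuclear speckle genes, of which 2 were higher and 5 lower (median -0.08): Hnrnpu, which binds nuclear scaffold RNA, stood at -0.19 ± 0.04 (adjusted p = 0.011) and the splicing factor Hnrnpa2b1 at -0.21 ± 0.05 (adjusted p = 0.0167), both with overlapping groups. Without NS Input replicate 4 this list had 4 genes called.

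Activity-regulated genes moved in both directions. Of 25 rapid immediate early genes 5 were higher and 2 lower (median 0.14). Nr4a1, a nuclear receptor induced within minutes of activity, had 46.6, 52.5 and 57.7 CPM in RES and 35.1, 37.8 and 39.8 in NS (0.48 ± 0.06, adjusted p = 1.81e-06). Ier5, a regulator of the heat shock factor, rose by 0.29 ± 0.04 (adjusted p = 5.18e-05), and Junb, a partner of Fos, by 0.27 ± 0.05 (adjusted p = 0.000387). Btg2, an antiproliferative gene, went the other way, with 24.1, 28.3 and 29.9 CPM in RES and 32.9, 33.9 and 38.5 in NS (-0.34 ± 0.07, adjusted p = 0.00517). Fos, the best known of these genes, had 23.6, 27.1 and 35.0 CPM in RES and 18.3, 21.4 and 29.6 in NS, with overlapping groups (0.31 ± 0.11, adjusted p = 0.1). Against the other 3 subtypes Nr4a1 was higher (0.23, adjusted p = 0.0185) and Btg2 lower (-0.55, adjusted p = 3.88e-07).

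Some later effector genes were lower. Of 26 delayed activity genes 1 was higher, Per1, 8 were lower and 17 did not pass, at a median of -0.20, and their summed CPM was 987 to 1029 in RES and 1126 to 1182 in NS. Bdnf, the neurotrophin, had 14.3, 18.2 and 19.5 CPM in RES and 21.2, 23.2 and 26.3 in NS (-0.41 ± 0.09, adjusted p = 0.0086; chromosome 2, 109505045 to 109557352). Scg2, a secretogranin of dense-core vesicles, had 202, 212 and 217 CPM in RES and 242, 256 and 269 in NS (-0.28 ± 0.03, adjusted p = 4.32e-07). Groups did not overlap for either gene. In the test against the other 3 subtypes 1 of the 26 genes passed, and Bdnf did not (-0.16, adjusted p = 0.401). Vgf, a secreted peptide precursor, stood at -0.23 ± 0.05 (adjusted p = 0.00362), Cdkn1a, the cell cycle inhibitor p21, at -0.48 ± 0.07 (adjusted p = 3.85e-05), and Nrn1, Homer1, Inhba and Rheb fell as well. Scg2 and Vgf were also the 2 of 19 neuropeptide genes called (median -0.15), a number that was 4 without RES Input replicate 6, 5 without NS Input replicate 6 and 6 with DESeq2 or voom.

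Stress hormone targets showed few differences. Of 23 glucocorticoid response genes 2 were higher, Per1 and the phosphatase Dusp1 (0.27 ± 0.06, adjusted p = 0.00615, groups overlapping), and 1 lower, Cdkn1a, at a median of 0.03. Fkbp5, the chaperone most used as a readout of glucocorticoid action, had 17.8, 18.99 and 21.2 CPM in RES and 16.5, 19.1 and 20.7 in NS (0.03 ± 0.09, adjusted p = 0.922). Of 27 chaperone genes 1 was higher and 7 were lower (median -0.10), and 0 passed against the other 3 subtypes. The cytosolic chaperone Hsp90aa1 had 584, 597 and 646 CPM in RES and 668, 675 and 705 in NS (-0.17 ± 0.03, adjusted p = 0.00131), and its endoplasmic reticulum counterpart Hsp90b1 stood at -0.22 ± 0.04 (adjusted p = 0.000597, overlapping). Chordc1, a cochaperone of Hsp90, stood at -0.43 ± 0.09 (adjusted p = 0.00463), while Cryab, a small heat shock protein that oligodendrocytes express, rose by 0.23 ± 0.05 (adjusted p = 0.00357).

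Mitochondrially encoded RNA was lower. These genes took 1.63% ± 0.0751 of counts in RES and 1.95% ± 0.105 in NS (SD, n = 6 each). Of 15 such genes 0 were higher and 8 lower, at a median of -0.31, and 0 passed against the other 3 subtypes. The ATP synthase subunit mt-Atp6 had 401, 467 and 479 CPM in RES and 537, 618 and 667 in NS (-0.39 ± 0.09, adjusted p = 0.011), and the complex I subunits mt-Nd2 and mt-Nd5 stood at -0.52 ± 0.12 (adjusted p = 0.0119) and -0.28 ± 0.07 (adjusted p = 0.0135). The ATP synthase subunit mt-Atp8 stood at -0.60 ± 0.15 (adjusted p = 0.0173), and its reading frame overlaps that of mt-Atp6. The number called was 5 without RES Input replicate 1, 4 without NS Input replicate 3 and 14 with only these 12 libraries in the fit. Of 76 nuclear genes of oxidative phosphorylation 3 were higher and 0 lower, with 1 called without RES Input replicate 3 and 6 with voom.

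A pair of nuclear noncoding RNAs was lower in RES. Malat1, a long noncoding RNA of nuclear speckles, had 175, 195 and 199 CPM in RES and 245, 265 and 296 in NS (-0.49 ± 0.09, adjusted p = 0.000542; chromosome 19, 5845718 to 5852700). Meg3, an imprinted noncoding RNA, had 210.2, 218 and 244 CPM in RES and 227, 248 and 259 in NS, with overlapping groups (-0.15 ± 0.04, adjusted p = 0.0141). They were the 2 of 13 genes of the list that were called (median -0.10). Both stood below the other 3 subtypes as well, by -0.55 for Malat1 (adjusted p = 1.44e-05) and -0.41 for Meg3 (adjusted p = 1.25e-11), and Meg3 averaged 223 ± 13.7 CPM in RES, 313 ± 6.39 in SA, 293 ± 5.10 in SA:ANH, 283 ± 14.3 in ANH and 247 ± 11.7 in NS (SD, n = 6 each).

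Small rises were seen in cholesterol synthesis and synaptic release. Of 22 cholesterol genes 4 were higher and 0 lower (median 0.09): Mvd, a decarboxylase of the mevalonate pathway, had 51.2, 54.1 and 63.3 CPM in RES and 36.8, 41.3 and 46.3 in NS (0.43 ± 0.07, adjusted p = 0.00011), and squalene synthase, Fdft1, stood at 0.18 ± 0.03 (adjusted p = 0.000254). Dhcr7, the last enzyme of the pathway (0.31 ± 0.08, adjusted p = 0.0346), and Insig1, which holds the pathway's regulator in check (0.28 ± 0.08, adjusted p = 0.0336), had overlapping groups. Without any 1 of RES Input replicate 2 and NS Input replicates 2, 4 and 5 the list had 2 genes called, as it did with library totals alone. Of 38 synaptic vesicle genes 8 were higher and 0 lower, though the median was 0.01, and 5 were called with no filter on low counts. Besides Cplx3 these included Syt2, a fast calcium sensor, with 8.31, 11.97 and 13.2 CPM in RES and 3.69, 6.59 and 9.15 in NS (0.81 ± 0.18, adjusted p = 0.00744). The fusion protein Stx1a stood at 0.17 ± 0.03 (adjusted p = 0.00096), the disassembly factor Napa at 0.13 ± 0.03 (adjusted p = 0.00223) and the vesicle GTPase Rab3a at 0.13 ± 0.03 (adjusted p = 0.00413). Of the 38 synaptic vesicle genes, 0 passed against the other 3 subtypes.

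**Figure D4:**
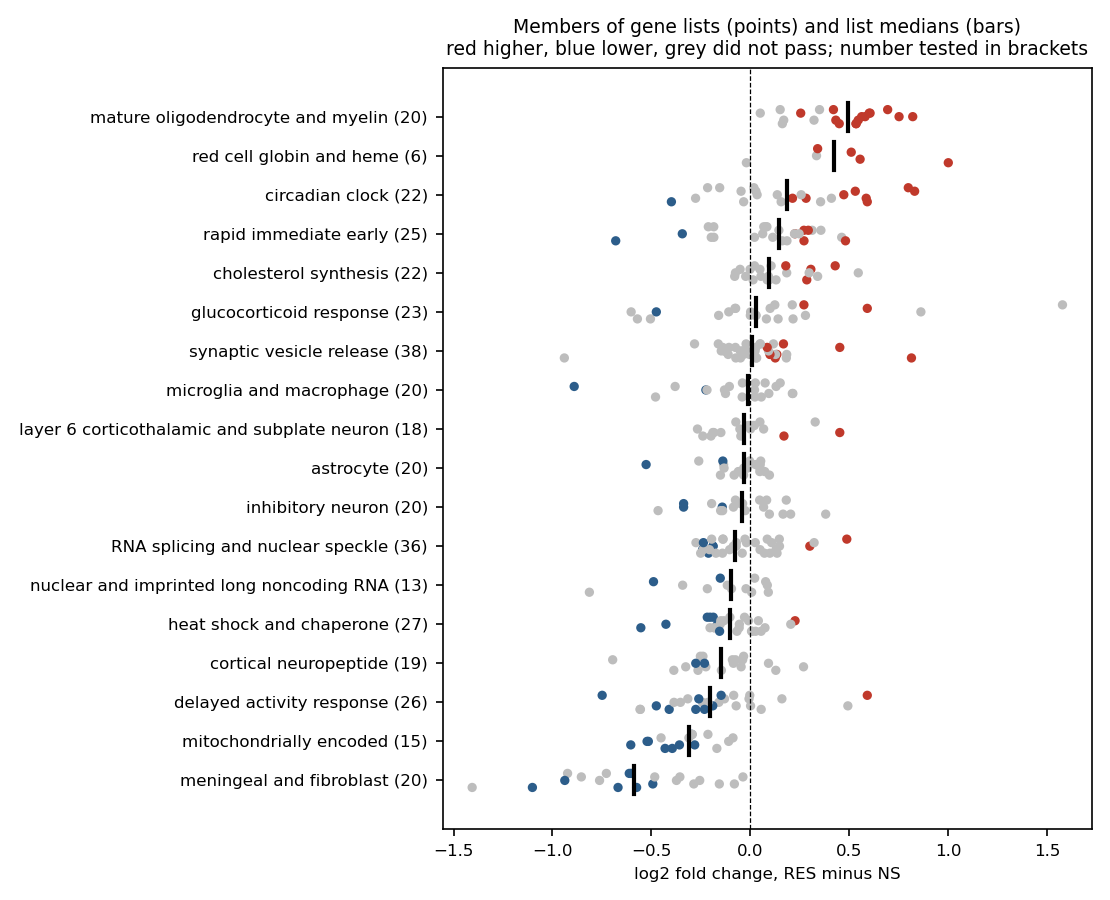
Log2 fold change of RES over NS (horizontal axis) of each tested member (points) of 18 gene lists with at least 10% of members called, with list medians as bars and the median of all genes, -0.002, as a dashed line. Myelin and globin medians lie highest, at 0.49 and 0.42, and the mitochondrially encoded and meningeal medians lowest, at -0.31 and -0.59.

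Of the single genes with the largest changes, some belong to no list. Prkcd, a protein kinase C of thalamic and other subcortical neurons, had 7.15, 10.04 and 10.9 CPM in RES and 19.03, 20.7 and 25.3 in NS (-1.16 ± 0.13, adjusted p = 7.79e-08). Rasd1, a small GTPase induced by dexamethasone, had 6.03, 7.50 and 8.54 CPM in RES and 11.5, 12.96 and 17.4 in NS (-0.89 ± 0.14, adjusted p = 7.39e-05). Both were lower in every RES library than in any NS library, and neither passed against the other 3 subtypes (-0.40, adjusted p = 0.0705, and -0.24, adjusted p = 0.43). Among the rises were Aloxe3, a lipoxygenase (0.64 ± 0.14, adjusted p = 0.00685), and Rasip1, a Ras partner of endothelial cells (0.60 ± 0.15, adjusted p = 0.0149). Fmnl3, a formin (0.60 ± 0.16, adjusted p = 0.0278), and Zbtb8b (0.71 ± 0.18, adjusted p = 0.0217) had overlapping groups. Fmnl3 lost the call without any 1 of RES Input replicates 2, 4 and 5 or NS Input replicates 1, 2 and 6, and Zbtb8b without RES Input replicate 5 or 6 or NS Input replicate 6.

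The remaining 25 lists, which cover receptors, ion channels, chromatin, ribosomal proteins, inflammation and further cell types, were nearer the background in the share of members called. Of their 657 members, counted in each list, 16 were higher and 15 lower, no list had more than 9.52% called and the medians lay between -0.14 and 0.16. Of 42 ionotropic glutamate receptor genes 0 were higher and 4 lower, with 2 called without RES Input replicate 1 or 3 and 1 without NS Input replicate 6 or with no filter. Of 82 cytosolic ribosomal protein genes 3 were higher and 0 lower, though 76 had a positive fold change, at a median of 0.09. Their summed CPM was 10421 to 12479 in RES and 10458 to 11103 in NS. In IP 40 of the 82 were higher in RES and 0 lower, at a median of 0.23, where 2.25% of all genes tested were higher. The number called in Input was 0 without RES Input replicate 4 or NS Input replicate 5, 1 without any 1 of RES Input replicates 1 and 5 and NS Input replicates 1 and 2, 6 without RES Input replicate 6 and 7 with DESeq2. Rises were fewer among the longest of the well expressed genes: of 4 classes of equal size by exon length, made within the class of highest mean CPM, 2.82% of genes rose in the longest (4409 to 27908 bases), against 6.33%, 7.66% and 6.97% in the shorter 3.

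To ask whether the difference was the same in the ribosome pulldown, the change of RES over NS in Input was tested against that in IP. Of 18937 genes, 510 (2.69%) differed, 243 (1.28%) with the larger value in Input and 267 (1.41%) with the larger in IP, a split of 174 and 297 with RLE scaling and 141 and 358 with library totals alone. Of the 356 genes higher in RES Input, 75 were called higher and 11 lower in RES IP against NS IP, where 4.36% of all genes tested were called, 2.25% higher and 2.11% lower. Of the 231 lower in Input, 199 could be tested in IP, with 25 called lower and 12 higher. Of 21 clock genes tested in IP 5 were higher and 0 lower, and their median was -0.03 in IP, against 0.18 over the 22 in Input; 2 of them differed between the fractions. Of the 26 delayed activity genes 1 was higher and 8 lower in IP, with a median of -0.24, against -0.20 in Input, and 0 differed between the fractions. Dbp stood at 0.80 in Input and 0.68 ± 0.05 in IP, Bhlhe40 at 0.58 and 0.59 ± 0.06, and Bdnf at -0.41 and -0.43 ± 0.06. The test of Input against IP did not pass for Dbp, Bhlhe40 and Bdnf (differences of 0.11, -0.00 and 0.02, adjusted p = 0.415, 0.998 and 0.976).

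Myelin genes rose more in the pulldown than in bulk. Mbp stood at 0.53 in Input and 1.66 ± 0.05 in IP (difference -1.12, adjusted p = 4.42e-25), and Car2 at 0.24 and 2.13 ± 0.14 (difference -1.89, adjusted p = 4.39e-19). In all, 15 of the 20 myelin genes differed between fractions, with a median of 0.49 in Input and 2.13 in IP. Sst and Apod were level in bulk and higher in IP. The interneuron peptide Sst stood at -0.04 and 1.49 ± 0.07 (difference -1.53, adjusted p = 2.65e-25). The lipocalin Apod, which oligodendrocytes express, stood at -0.05 and 1.98 ± 0.17 (difference -2.02, adjusted p = 1.77e-18). Sst was not typical of its list: of 19 inhibitory neuron genes tested in IP 2 were higher and 1 lower, with a median of 0.35. Gad1 (-0.07 ± 0.20) and Gad2 (0.11 ± 0.15) were not called in IP. How much bulk RNA each pulldown carried along was not tested.

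Some genes went in opposite directions. Gfap was at -0.53 in Input and 1.45 ± 0.31 in IP (difference -1.98, adjusted p = 4.93e-10), Malat1 at -0.49 and 0.42 ± 0.12 (difference -0.91, adjusted p = 0.00013) and Meg3 at -0.15 and 0.44 ± 0.05 (difference -0.59, adjusted p = 1.3e-10). Each of the 3 was lower in RES bulk and higher in RES pulldown by its own test. Fos stood at 0.31 in Input, which did not pass, and at -0.45 ± 0.11 in IP, which did (difference 0.76, adjusted p = 0.00164). For the mitochondrially encoded list the median was -0.31 in Input and 0.39 in IP, and 8 of 15 genes differed between the fractions. These genes took 0.0268% ± 0.00216 of counts in RES IP and 0.0202% ± 0.00247 in NS IP (SD, n = 6 each).

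**Figure D5:**
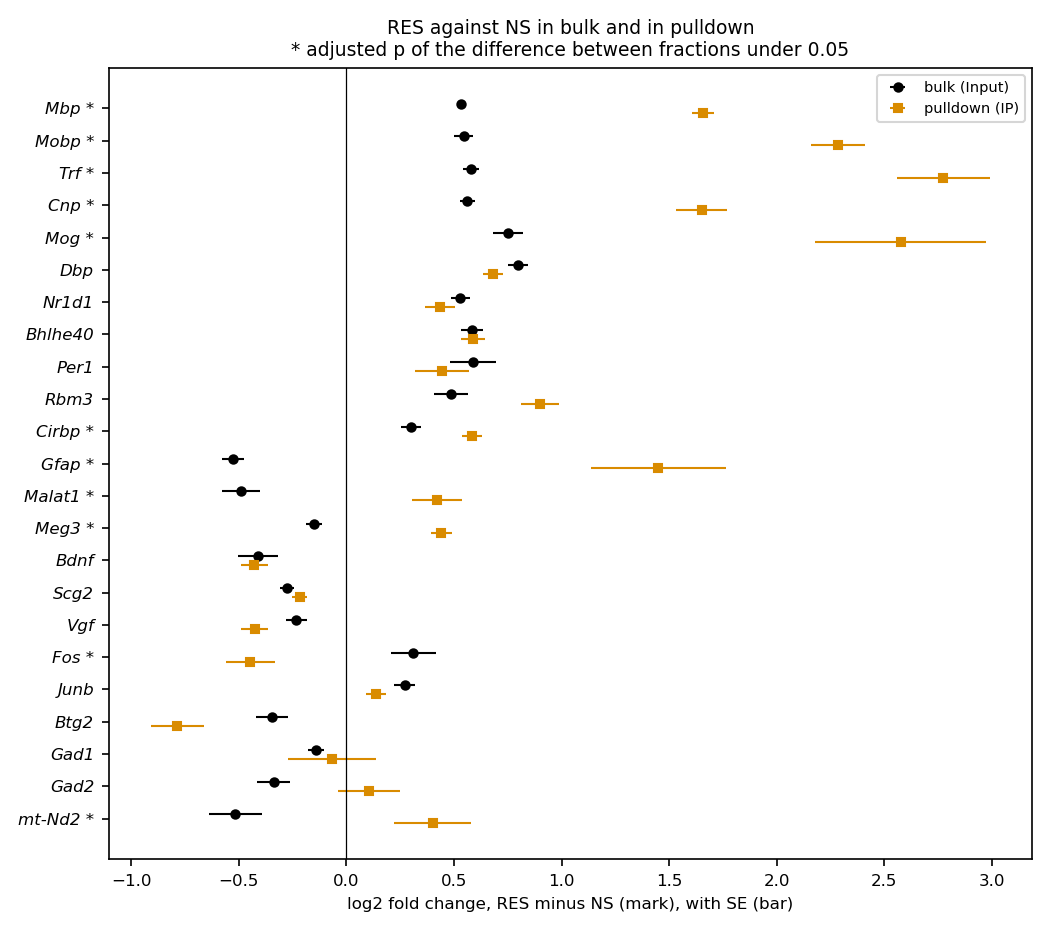
Log2 fold change of RES over NS (marks) with SE (bars) in bulk (circles) and in pulldown (squares) for named genes; an asterisk marks an adjusted p under 0.05 for the difference between fractions. Myelin genes lie further right in pulldown, Dbp, Bhlhe40 and Bdnf lie together, and Gfap, Malat1 and Meg3 lie on opposite sides of 0.

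RES was last set against the other subtypes directly. Of 18170 genes 125 (0.688%) passed against the mean of SA, SA:ANH and ANH, 62 (0.341%) higher and 63 (0.347%) lower in RES (50 and 80 with library totals alone). This comparison uses the same RES libraries as the one against NS. The differences from NS in the other subtypes, which rest on the same NS libraries, numbered 515 genes (2.83%) in SA, 1026 (5.65%) in SA:ANH and 476 (2.62%) in ANH.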

How the data were processed

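RNA-seq was made from mPFC of DBA2/J mice with the SMART-Seq v4 and TruSeq v2 kits, per the labels' protocols. The authors deposited 1 table of expected counts (estimated reads of 55414 genes in 60 libraries, 88.4% of the values whole within 1e-06), and every value column was matched to a sample. The same deposited table gives an exon length per gene, in bases and with no score or scale of its own. Bowtie2 2.2.3, TopHat2 2.0.13, Trimmomatic 0.32 and mm10 are named in the submitters' processing notes. Neither counting tool nor strand setting is stated there, and the table's positions are not those of mm10.

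Counts were rounded, scaled by TMM and tested with edgeR 4.0.16 (R 4.3.3) after filterByExpr at a minimum count of 10, with Benjamini-Hochberg adjustment at 0.05. The 30 Input libraries were fitted with 5 groups, contrasting RES with NS and with the mean of SA, SA:ANH and ANH. A fit of all 60 libraries gave Input against IP. The common biological coefficient of variation was 18.6%, and 6.54% at the median of the best expressed genes (the upper 25% by counts), which sets the precision. Reads carry no molecular identifiers. Pairs of libraries of a group differed by a chi-square per gene of 7.32 to 16.2, above sampling noise, so all were counted. The fits were also run on simulated counts in which every gene had the same spread, unlike these data.

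Named genes were those called with a mean of at least 10 CPM in the higher group (predicted genes and pseudogenes left out): the 12 largest rises, the 12 largest falls, the 10 smallest adjusted p, up to 4 called members of each list described, Rpl10a, Fos, Fkbp5, Bdnf and the 5 smallest adjusted p of Input against IP. This gave 81 genes, of which 2 are not reported here and a few are left undescribed. Lists with at least 10% of members called were described, a limit set after the values were seen. The comparison, the members and the lists were chosen with earlier results of these data known. Alternatives were RLE factors, library totals alone, DESeq2 1.42.0, voom with quality weights of limma 3.58.1, no filter, the replicate block, only 12 libraries, gene classes left out and each library left out.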

Additional observations from a re-analysis of the deposited data

Results flagged for a closer look

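Groups of 6 values were checked for the named genes reported, the library totals and the mitochondrial shares. Of these 162 groups, 16 had 1 library set apart from the other 5, where chance gives about 1 in 20. In RES the library apart was high for Apod (163 CPM), Cryab (131 CPM) and Ucp1 (0.0388 CPM, the only count in the group) and low for Dusp1 (52.4 CPM) and mt-Atp6 (401 CPM). In NS it was high for Bhlhe40 (113 CPM), C1qb (86.0 CPM), Car2 (272 CPM), Hsp90aa1 (705 CPM), Igf2 (19.6 CPM), Per1 (16.8 CPM), Scd1 (172 CPM) and Thrsp (57.4 CPM). It was low in NS for Cdkn1a (43.9 CPM), Cnr1 (34.9 CPM) and Zbtb8b (5.98 CPM). The libraries apart were spread over replicates 1, 4, 5 and 6 of RES and 1 to 6 of NS.

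The change of RES over NS differed between Input and IP for 32 named genes, given here as the Input value minus the IP value on the log2 scale. Myelin and oligodendrocyte genes had the lower value in Input: Trf (-2.20), Opalin (-2.17), Apod (-2.02), Mag (-1.94), Car2 (-1.89), Mog (-1.81), Mobp (-1.74), Mbp (-1.12), Cnp (-1.09) and Cryab (-0.64). So did Gfap (-1.98) of astrocytes, the interneuron peptide Sst (-1.53), Ptgds (-1.31), Rasd1 (-1.08), Malat1 (-0.91), Meg3 (-0.59), Rpl10a (-0.32) and Cirbp (-0.28). The mitochondrial genes mt-Nd5 (-0.96), mt-Nd2 (-0.92) and mt-Atp6 (-0.73) did as well. For the fat and pituitary genes the values were -1.97 for Cidea, -1.27 for Scd1, -1.11 for Thrsp, -7.84 for Fabp4 and -6.84 for Gh, the last 2 being fitted values that depend on the prior count and are no bound. The value was higher in Input for Fos (0.76), Rprm (0.52), Dusp1 (0.46), Fdft1 (0.20), Rab3a (0.16) and Napa (0.16).

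Against the mean of the other 3 subtypes in Input, 24 named genes differed. RES was higher for the clock genes Ciart (0.45), Per1 (0.36), Dbp (0.35), Nr1d1 (0.23) and Bhlhe40 (0.21), for the myelin genes Mog (0.33), Mag (0.25), Opalin (0.25), Trf (0.21), Cnp (0.19), Mobp (0.16) and Mbp (0.14), and for Nr4a1 (0.23), Cirbp (0.19) and Fdft1 (0.11). Not all of these held against each subtype. ANH averaged above RES for Mbp (2850 and 2460 CPM), Cnp (446 and 420) and Mag (142 and 137). SA:ANH was not below RES for Nr4a1, and SA was close to RES for Cirbp. RES was lower for Ptgds (-0.56), Btg2 (-0.55), Malat1 (-0.55), Igf2 (-0.54), Meg3 (-0.41), Hba-a1 (-0.29), Hbb-bt (-0.28) and Hbb-bs (-0.28), and for Gh the fitted value was -6.60, with SA:ANH libraries holding 5.15 to 8.01 CPM.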

How the results depend on the processing

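No named gene that passed reversed its direction under any alternative, and reversals were not counted for named genes that did not pass. In settings that keep all 12 libraries, 715 values of named genes kept their side of the threshold and 7 lost it, and with 1 library left out 921 kept it, 50 lost it and 1 gained it. The number called was 415 to 551 with 1 library left out, with 236 to 320 higher and 170 to 241 lower. With library totals alone 220 genes were higher, and 141 had the larger value in Input than in IP. DESeq2 called 935 genes, 401 of them lower. It called 333 against the other 3 subtypes (149 higher, 184 lower), and 419 with the larger value in IP. Limma voom called 104 higher against the other 3 subtypes, and no filter left 121 with the larger value in Input. The cause was not tested. Same-numbered RES and NS libraries correlated at -0.02 to 0.08 once group means were removed. Differently numbered libraries were not set beside them, so whether replicate numbers mark a shared step was not tested. The replicate block gave 763 calls (436 higher, 327 lower), 157 against the other 3 subtypes and 552 between Input and IP, and it changed no direction. Fold changes of genes at or near 0 in RES depend on the prior count, and counts set their bounds.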
